A study of Mus musculus with 6 samples.

Results

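The zone described here is the stretch of mouse chromosome 4 that lies over 400 kb and up to 1 Mb downstream of the Wnt4 promoter viewpoint, at higher coordinates, beyond the Wnt4 gene body (mm9, chr4:137232109-137832108). Its members are fragment ends, the cut sites at which ligation to the promoter was counted. Every listed end inside these borders was taken, without regard to its reads, which gave 1579 of the 369081 ends listed for the chromosome. Contacts were measured by 4C-seq, a chromosome conformation capture assay read from a single viewpoint, in BC44 and HC11, both mammary epithelial cell lines of the mouse, with 3 libraries per line. Both lines were grown in RPMI1640 medium with 10% FBS and 5 µg/ml insulin. HC11, a line established from mammary tissue of pregnant mice, also received EGF at 10 ng/ml, so line and growth factor cannot be told apart. Both were fixed with 2% formaldehyde for 10 min. The labels do not say whether replicates came from separate cultures, so p-values measure only the spread between these libraries, which may be technical.

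Wnt4 encodes a secreted Wnt ligand that acts downstream of progesterone in the branching of the mammary ducts. Chromatin folds into domains, often bordered by the architectural protein CTCF and shaped by cohesin, within which a promoter meets enhancers by looping. Contact with a promoter generally declines with distance along the chromosome, and beyond the domain of the promoter it is usually sparse. The study concerned looping between Wnt4 and enhancers bound by grainyhead-like (GRHL) factors and the progesterone receptor. The authors' own interaction calls used a window of 400 kb, so the zone lies outside the range they examined.

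In 4C-seq, DpnII cuts the fixed chromatin at GATC, cut ends are ligated, and NlaIII then cuts at CATG to give a short piece that is amplified together with the viewpoint. What is counted at an end is therefore a piece that runs from a GATC site to the nearest CATG. No end of the zone had reads in all 6 libraries, and 17 ends had reads in 5 of them. The pieces of the 5 with the highest mean level are shown, 5′ to 3′ from the DpnII site, because they carry the highest level among the contacts that recur most in the zone. This set was chosen after the values were seen. Capitals mark the DpnII and NlaIII sites. In the order shown they are chr4:137243179-137243246 (minus strand, intron of Rap1gap), chr4:137435990-137436033 (minus strand, intron of Ece1), chr4:137405769-137405915 (plus strand, between Alpl and Ece1), chr4:137252206-137252360 (minus strand, intron of Rap1gap) and chr4:137235562-137235634 (minus strand, intron of Rap1gap), all in mm9.
End 137243246: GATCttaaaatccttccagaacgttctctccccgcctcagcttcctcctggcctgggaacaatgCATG
End 137436033: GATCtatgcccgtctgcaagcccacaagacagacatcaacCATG
End 137405769: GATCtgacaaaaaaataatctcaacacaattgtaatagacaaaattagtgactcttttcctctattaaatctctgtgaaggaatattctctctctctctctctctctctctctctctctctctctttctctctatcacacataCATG
End 137252360: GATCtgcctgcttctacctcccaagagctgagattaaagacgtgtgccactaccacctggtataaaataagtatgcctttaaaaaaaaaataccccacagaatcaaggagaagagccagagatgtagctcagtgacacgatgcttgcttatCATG
End 137235634: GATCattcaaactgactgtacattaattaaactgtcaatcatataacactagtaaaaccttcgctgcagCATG

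Libraries held 96690 to 1755373 reads on the chromosome, and HC11 replicate 2 was the shallowest. Levels are given as RPM, reads scaled to the same total of reads over 2 kb from the viewpoint in each library, divided by the listed ends of a stretch. The replicate 1 libraries stood apart, since the viewpoint end held 40.5% (BC44) and 44.3% (HC11) of all their reads, against 0.134% to 0.466% in the other 4 libraries. Main results are therefore also given for replicates 2 and 3 alone. PCR reads without molecular identifiers are not independent molecules. The interval below treats each read as an independent draw, so it is too narrow even for counting error and does not cover the spread between libraries.

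The zone took a small share of the promoter's contacts in both lines, and a larger share in HC11. In BC44 replicates 1, 2 and 3 it held 2.88%, 2.69% and 2.86% of the reads over 2 kb away, from 23687, 21460 and 26247 reads. In HC11 replicates 1, 2 and 3 it held 3.54%, 4.31% and 4.32%, from 34038, 4046 and 26393 reads. Every HC11 library lay above every BC44 library, and HC11 replicate 1 lay nearest to BC44. The 95% Wilson interval of the shallowest library ran from 4.18% to 4.44%. The means were 2.81% ± 0.103 in BC44 and 4.06% ± 0.451 in HC11 (SD, n = 3 each), a difference of 1.25 percentage points. An exact permutation test (two-sided, 20 relabellings) gave p = 0.1, the smallest it can give with 3 libraries against 3, and 0.233 after Benjamini-Hochberg adjustment over the 7 measures compared. The difference was 0.652 points between the replicate 1 libraries and 1.54 points with replicates 2 and 3 alone. A higher level in HC11 was not particular to the zone. The stretch at the same distance upstream, described below, also stood higher per listed end in every HC11 library than in any BC44 library.

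Measured against the rest of the downstream side, the zone again stood higher in HC11. It held 17.5%, 16.3% and 17.7% of the reads 10 kb to 1 Mb downstream in BC44 and 18.2%, 22.4% and 21.7% in HC11. The lines did not overlap, but HC11 replicate 1 exceeded its BC44 counterpart by only 0.746 points. The separation was lost with all libraries thinned to equal depth (BC44 replicate 3 at 17.97%, HC11 replicate 1 at 17.96%) and with captured ends in place of reads (exact permutation p = 0.2 in both). The means were 17.1% ± 0.714 and 20.8% ± 2.26 (SD, n = 3 each; exact permutation p = 0.1, adjusted 0.233). With replicates 2 and 3 alone the difference was 5.05 points in place of 3.62.

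Read counts in the zone, taken as one 600 kb window among windows of the same length along the chromosome, gave the same direction without passing the threshold. The log2 ratio of HC11 over BC44 was 0.66 (SE 0.27), with an adjusted p of 0.673 by edgeR's quasi-likelihood test. In that fit 0% of 242 windows were called, and 16 had an unadjusted p under 0.05, the zone among them. The call depended on the model and on the windows that entered the fit. DESeq2 called the zone (log2 0.84, adjusted p = 0.00735) among 2.07% of windows. edgeR fitted to the windows within 5 Mb also called it (log2 0.67, adjusted p = 2.65e-04), together with 4 others, or 29.4% of 17 windows. With replicates 2 and 3 alone the log2 ratio was 0.82 (edgeR adjusted p = 0.137). Over all 14 alternatives the log2 ratio lay between 0.51 and 0.93 and the adjusted p between 2.65e-04 and 0.957.

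Contact per listed end in the zone was lower than at the same distance on the other side of the promoter. Over the upstream zone, 400 kb to 1 Mb away at lower coordinates with 1648 listed ends, levels were 46.1, 41.1 and 43.5 RPM per end in BC44 and 61.6, 55.2 and 61.2 in HC11. There too every HC11 library lay above every BC44 library. In the downstream zone they were 18.3, 17.1 and 18.1 in BC44 and 22.4, 27.3 and 27.4 in HC11, below the upstream zone in each of the 6 libraries. The log2 ratio of downstream over upstream was −1.29 ± 0.04 in BC44 and −1.21 ± 0.23 in HC11 (SD, n = 3 each). The lines overlapped in this measure (exact permutation p = 0.7, adjusted 0.8). Against the 804 ends from 100 to 400 kb downstream, the log2 ratio of the zone was −2.26 ± 0.06 in BC44 and −1.90 ± 0.24 in HC11. The BC44 libraries gave −2.30, −2.29 and −2.18 and the HC11 libraries −2.15, −1.66 and −1.88, without overlap (exact permutation p = 0.1, adjusted 0.233). BC44 replicate 3 and HC11 replicate 1 were close neighbours, and the lines overlapped when thinned (exact permutation p = 0.2) and with captured ends (p = 0.3). Replicates 2 and 3 alone gave a difference of 0.46 on the log2 scale.

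Reads in the zone lay at few ends. In BC44 319, 250 and 212 ends had at least 1 read (20.2%, 15.8% and 13.4% of the listed ends), and in HC11 286, 244 and 332 had (18.1%, 15.5% and 21.0%). The lines overlapped, with means of 16.5% ± 3.44 and 18.2% ± 2.79 (SD, n = 3 each; exact permutation p = 0.6, adjusted 0.8). Between 29 and 39 ends carried 50% of the zone's reads in a library, and the highest end alone carried 2.36% to 3.73%.

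Along the zone, the line means per listed end were highest in the window at its near border, over Rap1gap, where the lines did not overlap. In the first window of 50 kb, from 400 to 450 kb, levels were 26.5, 31.5 and 25.2 RPM per listed end in BC44 and 54.0, 57.9 and 67.2 in HC11. The means were 27.8 ± 3.29 and 59.7 ± 6.76 (SD, n = 3 each). From 450 to 500 kb, over the end of Rap1gap and the 3′ part of Alpl, BC44 gave 31.7, 15.3 and 17.1 and HC11 32.2, 42.5 and 42.2. There the lines were separated only by the narrow gap between BC44 replicate 1 and HC11 replicate 1, and BC44 replicate 1 was higher than in the first window. From 500 to 550 kb BC44 gave 24.0, 14.4 and 32.0 and HC11 48.4, 34.8 and 30.3, with BC44 replicate 3 inside the HC11 range and above its own level in the first window. All HC11 libraries exceeded all BC44 libraries in 2 of the 12 windows, against 4.9% of the 919 windows tested on the chromosome.

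Farther along the zone the lines overlapped in every window. From 550 to 600 kb the means were 24.9 ± 5.43 RPM per listed end in BC44 and 26.8 ± 8.14 in HC11. Over Ece1 and just past its end, BC44 had the higher mean, at 20.8 ± 1.67 against 18.8 ± 5.35 from 600 to 650 kb and 20.3 ± 9.98 against 13.7 ± 5.29 from 650 to 700 kb. Those were the 2 windows in which BC44 had the higher mean. HC11 had it in the other 10, of which 8 were also higher by edgeR's TMM-scaled log2 ratio. Over Eif4g3 the BC44 means dropped, to 8.31 to 15.1 across the 4 windows from 700 to 900 kb. The HC11 means did not drop there. They ran from 15.7 to 24.2, all above the HC11 mean of 13.7 from 650 to 700 kb. The high HC11 mean from 800 to 850 kb rested on replicate 2, at 46.4 against 13.4 and 12.7 in replicates 1 and 3. From 900 to 950 kb, across the 3′ end of Eif4g3 and the start of Hp1bp3, the means were 18.9 ± 8.55 and 19.0 ± 2.63. In the last window, over Hp1bp3, Sh2d5 and Kif17, they were 8.36 ± 3.93 and 14.5 ± 9.98.

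edgeR called none of the 12 windows and 0% of all 919, of which 45 had an unadjusted p under 0.05. The window from 400 to 450 kb was the 1 window of the zone with an unadjusted p under 0.05 (log2 ratio 1.00, SE 0.49, unadjusted p = 0.0415, adjusted p = 0.921). The window from 700 to 750 kb had a similar log2 ratio of 0.98 (SE 0.97), with overlapping lines. The median log2 ratio over the 12 windows was 0.64, against −0.18 over all windows tested. DESeq2 called 5 of the 919 windows and none in the zone.

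**Figure D1:**
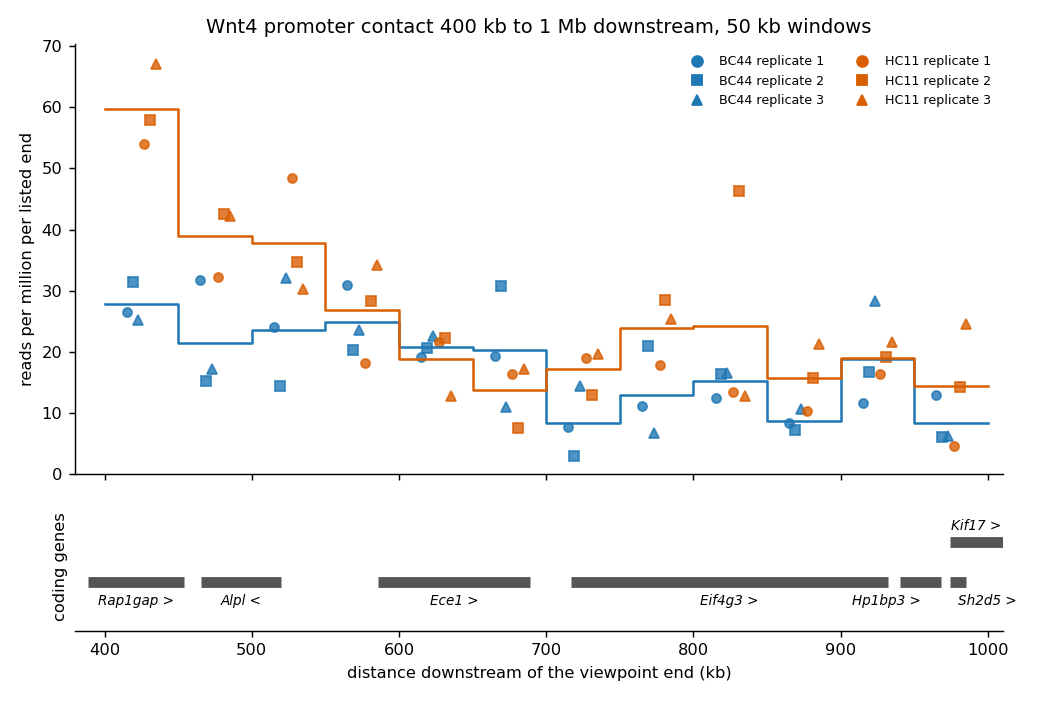
RPM per listed end in 12 windows of 50 kb against the distance downstream of the viewpoint end in kb, with 1 point per library and the mean of each line, above a map of the coding genes. From 400 to 450 kb the HC11 libraries sit between 54.0 and 67.2 and the BC44 libraries between 25.2 and 31.5, while the lines overlap in the windows beyond 500 kb.

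A split at 550 kb, chosen after the windows were seen and given as a description only, sums this up. From 400 to 550 kb, with 390 listed ends, BC44 gave 27.4, 20.2 and 24.9 RPM per end and HC11 44.8, 44.8 and 46.2. From 550 kb to 1 Mb, with 1189 listed ends, BC44 gave 15.3, 16.0 and 15.9 and HC11 15.0, 21.6 and 21.2. The replicate 1 libraries thus differed in the first stretch and were level in the second. The share of zone reads within 400 to 700 kb, which held 51.4% of the listed ends, was 66.7% ± 4.59 in BC44 and 64.8% ± 6.15 in HC11 (SD, n = 3 each; exact permutation p = 0.8, adjusted 0.8). In both lines the nearer part thus held more reads than its share of ends.

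Coding genes cover most of the zone, and 7 overlap it. Ends inside them made up 80.1% of the listed ends and took 71.1%, 83.1% and 68.7% of zone reads in BC44 and 78.4%, 78.2% and 77.9% in HC11. The means were 74.3% ± 7.68 and 78.2% ± 0.273, with the HC11 libraries inside the BC44 range (exact permutation p = 0.4, adjusted 0.7).

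Rap1gap (chr4:137220641-137285782, plus strand), which encodes a GTPase-activating protein for the small GTPase Rap1, had the highest contact per end of the coding genes in each line's mean. Its start lies 388.5 kb from the viewpoint, just before the zone, and 133 of the zone's ends lie in its body. Levels at these ends were 25.2, 30.6 and 25.4 RPM per end in BC44 and 52.7, 59.1 and 64.7 in HC11, without overlap. It took 12.9% ± 1.95 of zone reads in BC44 and 19.3% ± 0.94 in HC11 (SD, n = 3 each), from 8.42% of the listed ends. Over the whole gene body the log2 ratio of HC11 over BC44 was 1.15 (SE 0.36), with an unadjusted p of 0.00161 and an adjusted p of 0.186 by edgeR over 462 genes. DESeq2 called it (log2 1.09, adjusted p = 2.87e-06), 1 of 6 genes called, or 1.3%. Over the 15 alternatives its adjusted p ranged from 2.87e-06 to 0.999, and its log2 ratio from 0.65 to 1.31.

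Alpl (chr4:137297648-137352299, minus strand) encodes tissue-nonspecific alkaline phosphatase, which releases phosphate for mineralisation. Its 144 ends gave 32.1, 12.4 and 9.0 RPM per end in BC44 and 35.3, 37.6 and 45.7 in HC11. BC44 replicate 1 lay close to the lowest HC11 library, and the other BC44 libraries lay far below it. The log2 ratio was 1.24 (SE 0.45), with an unadjusted p of 0.00657 and an adjusted p of 0.607 by edgeR.

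Ece1 (chr4:137418152-137521144, plus strand), the gene of endothelin-converting enzyme, had the higher mean in BC44. Its 290 ends gave 19.7, 27.9 and 18.0 RPM per end in BC44 and 21.4, 15.8 and 14.9 in HC11, with HC11 replicate 1 inside the BC44 range. It took 22.7% ± 6.44 of zone reads in BC44 and 12.7% ± 4.19 in HC11, from 18.4% of the listed ends. The log2 ratio was −0.32 (SE 0.38, adjusted p = 0.999 by edgeR). With replicates 2 and 3 alone it was −0.89 (edgeR unadjusted p = 0.0429, adjusted p = 0.821).

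Eif4g3 (chr4:137548937-137764423, plus strand) encodes a scaffold protein of translation initiation and is the longest gene of the zone. Its 547 ends, 34.6% of those listed, took 23.4% ± 4.96 of zone reads in BC44 and 27.0% ± 4.92 in HC11, so contact there was thinner than over the zone as a whole. Levels were 9.31, 12.9 and 13.7 RPM per end in BC44 and 16.1, 25.7 and 18.6 in HC11, without overlap. The log2 ratio was 0.72 (SE 0.31), with an adjusted p of 0.910 by edgeR. Counting captured ends in place of reads, edgeR called Eif4g3 (log2 0.80, adjusted p = 0.00227) and no other of the 462 genes, or 0.216%. Its adjusted p ranged from 0.00227 to 1 over the 15 alternatives. With replicates 2 and 3 alone the log2 ratio was 0.39, against 0.88 for Rap1gap and 1.67 for Alpl in the same fit.

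At the last genes of the zone the lines overlapped, and the HC11 libraries were widely spread. Hp1bp3 (chr4:137772211-137800598, plus strand), the gene of a chromatin protein that binds heterochromatin protein 1, gave 14.7, 12.9 and 19.9 RPM per end in BC44 and 4.34, 8.39 and 31.9 in HC11. HC11 replicate 3 was the highest of all 6 libraries there and HC11 replicate 1 the lowest. Kif17 (chr4:137806350-137857882, plus strand), which encodes a kinesin motor, runs past the far border of the zone. Its 71 ends in the zone gave 7.80, 4.49 and 9.16 in BC44 and 4.24, 16.1 and 20.2 in HC11. The 18 ends of Sh2d5 (chr4:137806318-137817247, plus strand) also lie in Kif17 and took under 1% of zone reads in each line's mean, at 6.29 to 36.01 RPM per end. edgeR gave adjusted p-values of 0.999 for these 3 genes. For Kif17 the test took the whole gene body, with 137 listed ends, part of them beyond the zone. Its log2 ratio was 1.19 (SE 0.74, unadjusted p = 0.108 by edgeR), with the same sign in all 15 alternatives.

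All HC11 libraries exceeded all BC44 libraries at 3 of the 7 genes, Rap1gap, Alpl and Eif4g3, against 3.9% of the 462 genes tested. No gene of the zone was called by edgeR, as 0% of all 462 were, and 21 of the 462 had an unadjusted p under 0.05, these 3 among them. The median log2 ratio was 0.80 over the 7 genes and −0.06 over all genes tested.

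**Figure D2:**
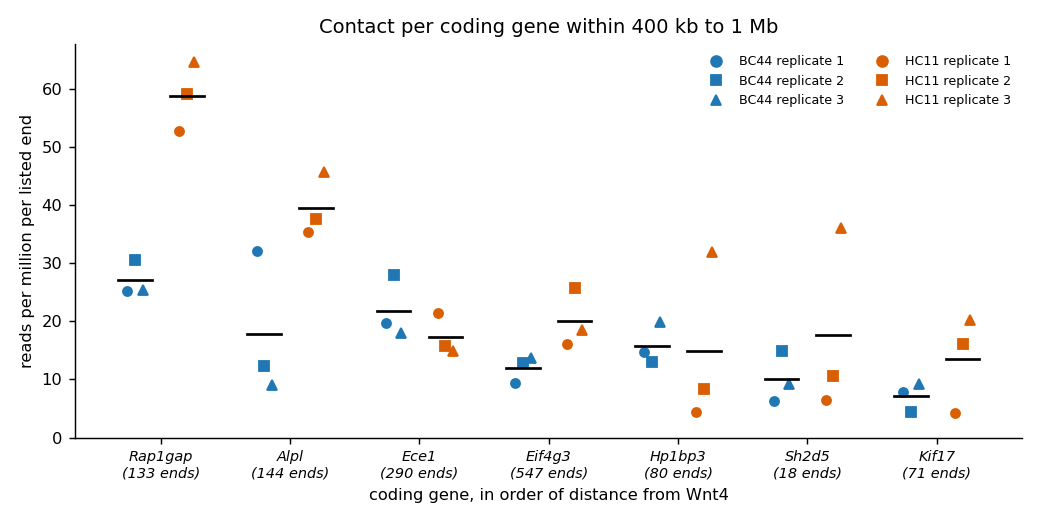
RPM per listed end over the 7 coding genes, in order of distance from Wnt4, with 1 point per library; the number of listed ends within the zone is under each name. HC11 points sit above all BC44 points at Rap1gap, Alpl and Eif4g3, while at Ece1 the BC44 libraries reach 27.9 and the HC11 libraries 21.4.

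Contact near gene starts did not follow contact over gene bodies in each case. Within 10 kb of the start of Ece1, with 60 listed ends, BC44 gave 38.9, 19.7 and 28.9 RPM per end and HC11 8.22, 10.5 and 10.7. Here every BC44 library lay above every HC11 library, a feature singled out after its values were seen and not tested. How often gene starts separate in this way over the chromosome was not counted. Among the 919 windows and 462 genes tested, all BC44 libraries exceeded all HC11 libraries in 80 and 39. Around the start of Alpl, with 64 ends, the lines overlapped, at 23.9, 11.7 and 24.6 in BC44 and 39.2, 41.1 and 22.1 in HC11. Around the start of Eif4g3, with 56 ends, they also overlapped, at 1.48, 3.70 and 17.5 in BC44 and 17.2, 11.4 and 22.7 in HC11. The lines overlapped as well around the starts of Hp1bp3, Sh2d5 and Kif17. Noncoding starts separated in either direction, which was not tested. Around AL807764.1, inside Ece1 with 72 listed ends, BC44 gave 22.6, 25.8 and 12.5 and HC11 12.1, 9.18 and 5.91. Around 1700095J12Rik, inside Eif4g3 with 61 listed ends, HC11 was higher, at 21.7, 21.7 and 14.7 against 2.69, 13.2 and 8.95. Around the other noncoding starts the lines overlapped. The noncoding genes held few ends, from 0 to 23. The longest of them, 1810058N05Rik, lies inside Rap1gap on the other strand and gave 6.24 to 73.4 RPM per end in BC44 and 16.0 to 57.3 in HC11.

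Between genes, the 65.9 kb from Alpl to Ece1 carried the most reads. Its 194 listed ends gave 26.2, 18.0 and 33.8 RPM per end in BC44 and 29.5, 34.8 and 33.5 in HC11, with BC44 replicate 3 inside the HC11 range. It took 17.9% ± 4.99 of zone reads in BC44 and 15.6% ± 0.571 in HC11 (SD, n = 3 each). The 43 ends between Ece1 and Eif4g3 gave 13.1, 2.95 and 11.0 RPM per end in BC44 and 2.68, 14.6 and 28.4 in HC11. These lay below the library's level over the whole zone in each library but HC11 replicate 3.

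To find contact above what its distance gives, levels in windows of 20 kb were divided by a background that can only decrease with distance, fitted within each library. In BC44 2 of the 30 windows of the zone reached 1.5 times the background in all 3 libraries, against 3% of the 100 windows from 10 kb to 2 Mb downstream. In HC11 0 of the 30 did, against 3% as well. With 1 library left out, fewer libraries have to pass, so a count can only stay or grow: it was 5 in BC44 without replicate 1, and 1 and 2 in HC11 without replicates 2 and 3. The BC44 window from 760 to 780 kb, inside Eif4g3, had ratios of 1.90, 2.95 and 1.66, and HC11 gave 1.12, 3.70 and 1.16 there. The window from 940 to 960 kb, over Hp1bp3, had ratios of 1.69, 1.83 and 2.56, and HC11 gave 0.902, 0.862 and 1.86. In each of them at least 1 HC11 library also passed 1.5, and the difference between lines was not tested. The background was fitted to the same windows, so high levels at the near border enter it, and ratios over Rap1gap do not show whether contact there exceeded its distance.

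Single ends recurred rarely. Of the 1579 ends, 675 had no read in any library, 429 had reads in 1 library, 285 in 2, 133 in 3, 40 in 4 and 17 in 5. No end had reads in all 6, against 13 of 1648 in the upstream zone, 67 of 804 from 100 to 400 kb downstream and 87 of 228 from 10 to 100 kb downstream. BC44 captured 607 ends in at least 1 library and HC11 645, of which 348 were common, 57.3% of the BC44 set and 54.0% of the HC11 set. Between libraries of a line, a median of 26.5% of the ends captured in one were captured in the other. Between libraries of different lines and numbers the median was 25.9%, and between same-numbered libraries of different lines 27.2%.

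The 17 ends with reads in 5 libraries clustered near the border of the zone. Of these, 14 lay within 400 to 600 kb and 11 in Rap1gap, which holds 133 of the 1579 listed ends. A further 2 lay in Ece1, 1 in Eif4g3 and 3 between genes, and each of those inside a gene was intronic. HC11 replicate 1 was the missing library at 6 of them, more often than the shallow HC11 replicate 2, which was missing at 2.

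Levels at the 5 ends whose sequences are shown varied widely within a line. The end at 137243246 had 133, 11.3 and 774 RPM in BC44 and 0, 458 and 1020 in HC11. The end at 137436033 had 18.3, 571 and 205 in BC44 and 0, 661 and 699 in HC11. Both lacked reads in HC11 replicate 1 and reached their maximum in HC11 replicate 3. The end between Alpl and Ece1, at 137405769, had 0, 208 and 357 in BC44 and 45.7, 693 and 786 in HC11. The end at 137252360 had 0, 380 and 6.53 in BC44 and 309, 171 and 920 in HC11. At the end at 137235634 BC44 gave 7.30, 30.1 and 0 and HC11 724, 586 and 376. That was the 1 end of the 5 at which the lines did not overlap. These 5 were picked by their reads, and how often other ends separate in this way was not counted. The difference there was not tested.

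Few ends were captured in every library of one line and in none of the other. There were 8 such ends for HC11 and 3 for BC44, 0.885% and 0.332% of the 904 ends captured in any library. Over the chromosome there were 34 of each, 0.192% of 17704 captured ends. The upstream zone held 13 of each among 1251, and the stretch from 100 to 400 kb downstream 6 for HC11 and 4 for BC44 among 660. The ends were picked by their reads and are given as a description. The HC11 set held 4 ends between genes, from 456.2 to 572.3 kb away, 1 coding-exon end in Alpl, 1 in Sh2d5 and Kif17, and a UTR and an intron end in Eif4g3. Among them the end at 137386848, between Alpl and Ece1, had 64.4, 149 and 93.3 RPM in HC11. The BC44 set lay in introns of Rap1gap, Alpl and Ece1, and its end in Ece1, at 137478391, had 94.96, 285 and 181 RPM in BC44. Some of these ends rested on few reads, such as 4, 1 and 4 at the UTR end in Eif4g3.

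**Figure D3:**
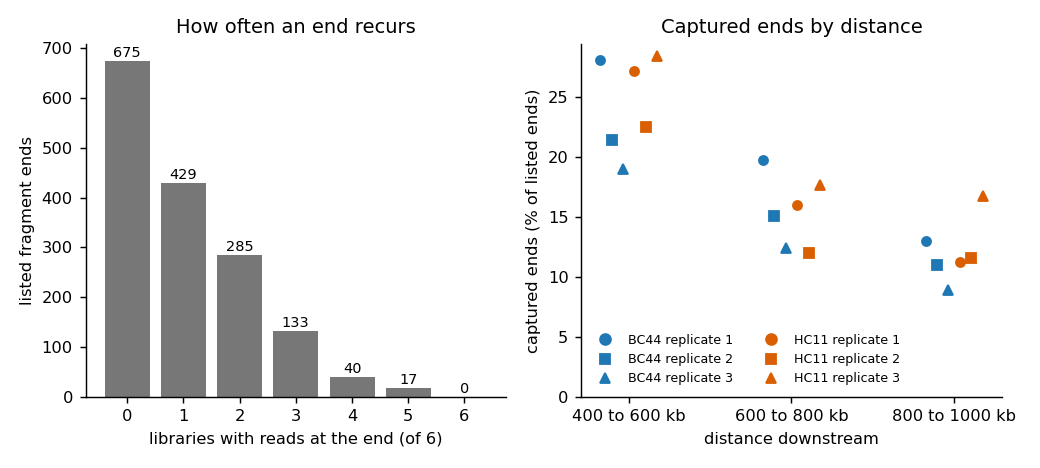
Left, the number of listed ends against the number of libraries in which the end had reads; right, captured ends as a percent of listed ends for each 200 kb of the zone, with 1 point per library. No end reached 6 libraries and 17 reached 5, and each library captured a larger share from 400 to 600 kb than farther away.

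The share of captured ends dropped with distance in each library between the first 200 kb and the rest. From 400 to 600 kb 28.1%, 21.4% and 19.0% of the 541 listed ends had reads in BC44 and 27.2%, 22.6% and 28.5% in HC11. From 800 to 1000 kb 12.99%, 11.0% and 8.90% of 562 had in BC44 and 11.2%, 11.6% and 16.7% in HC11. The longest runs of listed ends with no read in any library held 8 ends in Eif4g3 (chr4:137750874-137752202), 8 in Kif17 (chr4:137830756-137832074) and 7 at the 3′ end of Ece1 (chr4:137518364-137521187).

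By annotation, 1123 of the 1579 ends were intronic, 71.1%, and these took 66.5% ± 2.01 of zone reads in BC44 and 70.1% ± 2.53 in HC11 (SD, n = 3 each). The 65 ends in coding exons, 4.12%, took 3.91% ± 2.06 and 5.33% ± 0.914. The 45 ends in UTRs, 2.85%, took 1.01% ± 1.23 and 0.510% ± 0.296, below their share of ends in each library.

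Capture also varied with the length of the piece between the DpnII cut and the first NlaIII site, a feature the choice of ends did not use. Each of the 1579 ends had an NlaIII site in its fragment, and the median piece was 127 bp. Of the 119 ends with pieces of 400 bp or more, 31.9% were captured in any library, against 65.9% of the 352 ends with pieces of at least 200 and under 400 bp, 64.3% of the 485 of at least 100 and under 200 bp, 58.4% of the 361 of at least 50 and under 100 bp and 42.4% of the 262 under 50 bp. Reads followed another order. In a library, pieces under 50 bp gave 12.2 to 24.9 RPM per end, those from there to under 100 bp 27.5 to 47.2, and those from there to under 200 bp 20.1 to 36.2. Pieces of at least 200 and under 400 bp gave 5.19 to 9.77 and longer ones 0.137 to 3.22. Piece lengths were similar between the genes named above, with medians of 107 to 144 bp, and between the stretch from 400 to 550 kb (122 bp) and the rest of the zone (129 bp).

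**Figure D4:**
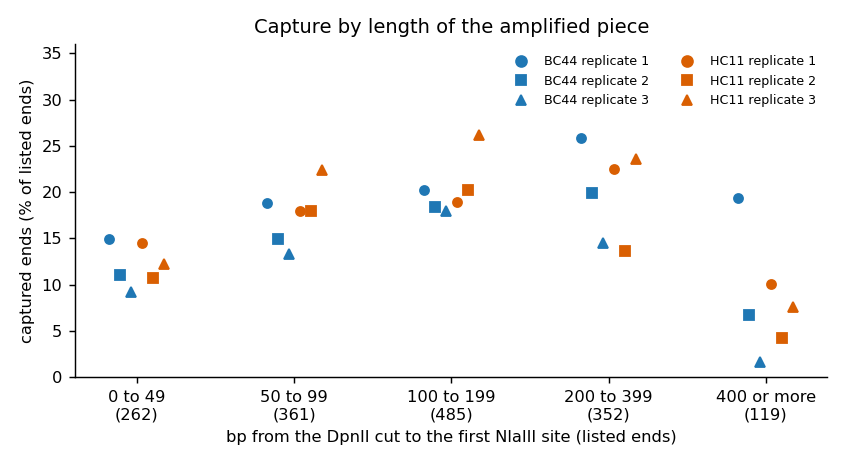
Captured ends as a percent of listed ends against the distance in bp from the DpnII cut to the first NlaIII site, with 1 point per library and the number of listed ends under each class. Pieces of 400 bp or more gave 1.68% to 19.3% captured ends in a library, and pieces of at least 100 and under 200 bp gave 17.9% to 26.2%.

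The consensus motif of GRHL factors, AACCGGTT, reads the same on both strands and was searched by exact letters in the mm9 sequence. It had 0 matches in the 600 kb of the zone. Of the 251 windows of the same length along the chromosome, 66.1% held at least 1 match, with a median of 1. This says only that these letters are not in the zone, not whether a factor binds there.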

How the data were processed

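Reads were mapped to mm9 and filtered with the de Wit laboratory's 4C pipeline at default settings, per the series' design text. The deposited values were raw read counts per fragment end on chromosome 4, without normalisation. The viewpoint end was the end with the largest summed RPM, a choice that rested on replicate 1; the primer position is not given in the sources used here. Genes came from GENCODE M1 on mm9. The members, gene lists and windows were chosen with earlier results of these data known. Every coding gene overlapping the zone was accounted for, with values for those holding at least 1% of zone reads. The rule for single ends required reads in all 6 libraries and found none, so ends with reads in 5 were used.

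Shares were compared with two-sided exact permutation tests. Counts in windows and genes, with at least 10 reads in at least 3 libraries, were tested over the chromosome with edgeR 4.0.16 (quasi-likelihood, TMM, adjusted p under 0.05), with DESeq2 1.42.0 as an alternative. The code was tested on simulated data. The distance background was an isotonic regression of log2(RPM per end + 1) from 10 kb to 2 Mb.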

Additional observations from a re-analysis of the deposited data

How the results depend on the processing

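Among alternative values of the main results, 125 were counted as kept, 9 counts moved, 3 differences reversed and 2 became calls. For single windows and genes 252 kept their direction and side of the threshold, 19 reversed and 2 became calls, and the cause was not tested. The count of 125 does not measure robustness. For the 7 measures the exact test cannot go below 0.1, so only their direction could change. Sign flips of pairs return the main difference itself. Counts of BC44 windows above the distance background that went from 2 to 3 were also counted as kept. Leaving out 1 library gave differences in the share of zone reads within 400 to 700 kb from −5.36 to 0.60 points, reversed without BC44 replicate 1 (0.362) or HC11 replicate 2 (0.599), and differences between the lines in the ratio to the upstream zone from −0.02 to 0.20 (log2), reversed without HC11 replicate 2 (−0.0196). The BC44 windows above the distance background numbered 0 with 50 kb windows, a ratio of 2 or captured ends, and 3 to 5 when 1 library was left out, where fewer libraries have to pass. The HC11 windows numbered 3 with 10 kb windows and 0 to 2 when 1 library was left out. The count of genes called in the zone was 1 with DESeq2 and 1 with captured ends, and the zone as one window was called at log2 0.84 by DESeq2 and 0.67 within 5 Mb.

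Reversals of log2 ratios concerned features near 0 or carried by 1 library. The window from 550 kb gave 0.0750 with DESeq2, 0.11 without TMM, 0.0297 without the filter, 0.33 with replicates 2 and 3, and −0.16 to 0.0515 with 1 library left out. The window from 900 kb gave 0.0141 without TMM, 0.38 with captured ends and −0.47 to 0.30 with 1 library left out. The windows from 600 and 800 kb ranged from −0.58 to 0.0664 and from −0.17 to 0.80. Hp1bp3 gave 0.19 with captured ends, 0.0419 with replicates 2 and 3 and −1.32 to 0.32 with 1 library left out; Ece1 ranged from −0.61 to 0.0419 and Sh2d5 from −0.27 to 1.26.

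The median log2 ratio over all genes was −0.06 with TMM and −0.21 without. Window levels of same-numbered libraries did not deviate together (correlations of −0.06, −0.08 and 0.02 over 201 windows), so numbers were not taken as pairs in the main tests. These correlations cannot show whether numbers mark a batch, since the replicate 1 libraries shared a high share of reads at the viewpoint end. With the replicate block, the zone as one window had a log2 ratio of 0.69 (edgeR adjusted p = 0.726), and no window or gene of the zone was called. For the shares, sign flips of 3 pairs cannot go below 0.25. With every library thinned to 93823 reads over 2 kb away, the zone share differed by 1.202 points and captured ends by 2.51 points. HC11 replicate 2 held the fewest reads in the zone, 4046, so a single read weighs most there.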
